A study of Macaca mulatta with 24 samples.

Results

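The lung-restricted transcripts are 200 transcripts of the fetal Rhesus macaque that had high counts in the lung and low counts in the liver and the hippocampus. They were chosen on CPM, a transcript's count per 1000000 counts of its library, averaged over the 8 libraries of each tissue. A transcript had to have a lung mean of at least 10 CPM that was at least 20 times its mean in the liver and at least 20 times its mean in the hippocampus. Of 45579 transcripts listed, 254 met these thresholds once ENSMMUT00000054851.1 had been left out by the rule, and the 200 with the highest lung means were taken as members. The tissue means thus chose the members, and the differences between tissues given here are a description of that choice. Treatment did not enter the thresholds. ENSMMUT00000054851.1, which the rule left out by name, had a lung mean of 2811 CPM, so the sums and rankings of members given here do not include it.

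RNA-sequencing of lung, liver and hippocampus from 8 preterm fetuses gave 24 libraries, 4 per treatment in each tissue. The clinical group were fetuses of pregnant animals given 2 intramuscular doses of Betamethasone-phosphate+Betamethasone-acetate of 0.25 mg/kg, 24 hr. apart. The oral group were given 3 oral doses of Betamethasone-phosphate (Beta-P) of 0.15 mg/kg, 12 hr. apart. All were delivered 5 days after treatment began. No untreated library was analysed here, so each comparison is between 2 active treatments that differ in drug, route, dose and interval. Gestational age at delivery was 132 to 133 days in the clinical group and 127 to 132 days in the oral group, so age and treatment cannot be fully told apart. Library totals ranged from 21088272 to 28641485 counts in the lung, 25803825 to 32122919 in the liver and 22537044 to 35254898 in the hippocampus. Clinical libraries 1 and 2 of the lung were sequenced in another run than the other 6 lung libraries. In the liver oral 3 was alone in its run and the other 7 libraries shared another. In the hippocampus the runs split clinical 1, 2 and 3 from all other libraries, so run and treatment can hardly be told apart there.

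Transcripts restricted to the lung are typically made by cells that the other tissues lack, such as the airway and alveolar epithelium. Late in gestation the alveolar type II cells of the fetal lung begin to make and store surfactant, the lipid and protein film that keeps alveoli open after birth. Antenatal corticosteroids act through the glucocorticoid receptor and are given to speed up this maturation. The transcript identifiers were not paired with gene names here, so no member is assigned to a gene, a role or a cell type, and the labelled tissues were not checked against marker genes. In whole tissue, fewer cells of a type and less RNA per cell cannot be told apart.

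The members spanned a wide range of lung levels. Their lung means ran from 21.1 to 3590 CPM with a median of 86.0 CPM, and the middle of the distribution lay between 45.7 and 204 CPM (lower and upper quartiles). Between 4.01% and 4.77% of a lung library's counts fell on the members, and these were unevenly shared. The 10 members with the highest lung means held 33.5% of the members' summed lung CPM, and the first 50 held 73.4%. A lung mean of at least 100 CPM was reached by 92 members, of at least 500 CPM by 24 and of at least 1000 CPM by 8. CPM is not divided by transcript length, so this order is one of counts and not of RNA molecules. Of the 9164 transcripts with a lung mean at or above that of the last member, 2.18% were members.

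In the other tissues the members were near the floor of detection or clearly present at a low level. The median liver mean was 1.04 CPM and the highest was 36.2 CPM. The median hippocampus mean was 0.867 CPM and the highest was 32.3 CPM. In the liver 14 members had no count in any of the 8 libraries, and 101 had a mean of at least 1 CPM. In the hippocampus these numbers were 16 and 92, and 4 members had no count in either tissue. The members were not lower in one of these tissues throughout. The liver mean was the higher one for 94 members and the hippocampus mean for 102.

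**Figure D1:**
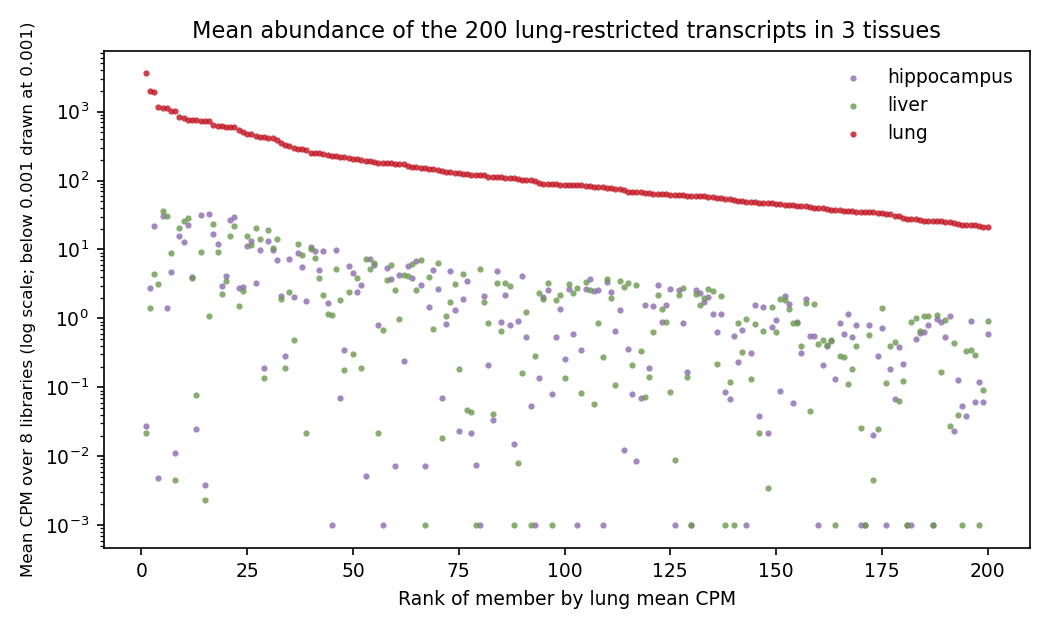
Mean CPM over the 8 libraries of each tissue on a log scale, for the 200 members in order of their lung mean. Lung means run from 3590 down to 21.1 CPM, liver and hippocampus means lie at least 20 times below at every rank, and means below 0.001 CPM, which here are zeros, are drawn at 0.001.

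A smaller set stood much farther from the other tissues than the rule asked. In 66 members the lung mean was at least 100 times both other means, and in 23 it was at least 1000 times both. The first of the 23 was ENSMMUT00000025039.3, which also had the highest lung mean of all members, 3590 CPM. It had 5 counts over the 8 liver libraries and 6 over the 8 hippocampus libraries. ENSMMUT00000013677.3 had a lung mean of 1031 CPM and 3 or fewer counts over all libraries of each other tissue. ENSMMUT00000069783.1 had a lung mean of 730 CPM, at least 56229-fold above the liver and at least 59086-fold above the hippocampus when 3 counts over the tissue's libraries are taken as the floor. Such floors cover counting error only. The 23 ranged down to 25.7 CPM, 13 of them reached 100 CPM, and 4 were among the 20 members with the highest lung means.

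Other members with high lung means were readily counted elsewhere. ENSMMUT00000067666.1, with a lung mean of 1116 CPM, had the highest liver mean of any member, 36.2 CPM, and one of the 3 highest hippocampus means, 30.2 CPM. ENSMMUT00000016482.3 had the same lung mean of 1116 CPM with 30.6 CPM in the liver and 1.40 CPM in the hippocampus. ENSMMUT00000013181.3 followed with 28.9 CPM in the liver. The other members of highest hippocampus mean were ENSMMUT00000024836.3 with 32.3 CPM and ENSMMUT00000060462.1 with 31.8 CPM. A gap of at least 5-fold between liver and hippocampus, with at least 1 CPM in one of them, was seen for 28 members, 15 higher in the liver and 13 higher in the hippocampus. ENSMMUT00000003955.3 lay far to the liver side, with a mean of 3.15 CPM there and 1 count over all hippocampus libraries. ENSMMUT00000032032.2 lay on the other side, with 1.80 CPM in the hippocampus and 0.0221 CPM in the liver. These last members were picked on their values.

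The thresholds cut through a continuous range. The last member by rank was ENSMMUT00000065804.1 with 21.1 CPM, and the next transcript outside was ENSMMUT00000022912.3 with 20.1 CPM. The member closest to the liver threshold was ENSMMUT00000079209.1 at 20.7 times its liver mean, and ENSMMUT00000032205.3 lay outside at 19.9 times. At the hippocampus threshold ENSMMUT00000029261.3 was inside at 20.1 times, and ENSMMUT00000059825.1 was outside at 19.96 times. When CPM was instead scaled over the 3 tissues together by the trimmed mean of M-values (TMM) method, 130 of the 200 members still met the thresholds. Which transcripts counted as lung-restricted thus depended on how libraries of different tissues were put on a common scale.

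Within the lung the members with the highest levels varied by different amounts from fetus to fetus. ENSMMUT00000025039.3 was measured at 3465, 4654, 4148 and 4268 CPM in clinical libraries 1 to 4 and at 2482, 4266, 2406 and 3032 CPM in oral libraries 1 to 4. In it, 3 of the 4 oral libraries were below every clinical library, and oral 2 was among the clinical values. ENSMMUT00000029729.3 was at 2353, 2589, 1894 and 2409 CPM with the clinical treatment and at 1130, 2284, 1734 and 1439 CPM with oral Beta-P. Here too oral 2 lay within the clinical range and the other 3 oral libraries lay below it. ENSMMUT00000075253.1 went another way in oral 2, with 1997, 1918, 2298 and 2054 CPM against 1821, 1300, 1797 and 2327 CPM. Its lowest value was in oral 2 and its highest in oral 4, so that the oral libraries spanned the whole clinical range.

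Among the next 7 members the treatments overlapped in all except ENSMMUT00000068450.1. ENSMMUT00000003955.3 was at 1196, 1489, 983 and 1268 CPM in the clinical libraries and at 917, 1588, 1007 and 820 CPM in the oral libraries. ENSMMUT00000013677.3 was at 1156, 1035, 820 and 1732 CPM and at 936, 1350, 640 and 582 CPM, the widest spread among the first 10. In both, oral 2 was the highest of the oral libraries. ENSMMUT00000016482.3 was at 1043, 1339, 1040 and 1448 CPM and at 1080, 781, 1289 and 908 CPM, with oral 2 the lowest. ENSMMUT00000067666.1 was the steadier one, at 1143, 1142, 1269 and 1051 CPM and at 1098, 928, 1177 and 1122 CPM. ENSMMUT00000068450.1 was at 1138, 1070, 1197 and 1228 CPM and at 828, 837, 1022 and 964 CPM. In it every oral library was below every clinical library, which none of the other members among the first 10 showed. ENSMMUT00000011932.3 ranged from 707 to 838 CPM in the clinical and from 697 to 1045 CPM in the oral libraries, and ENSMMUT00000016805.3 from 764 to 872 CPM and from 735 to 959 CPM. In the edgeR quasi-likelihood fit, 3 of these 10 had an unadjusted p below 0.05, all lower with oral Beta-P, and none passed the adjusted threshold. Among all transcripts tested 4.95% were lower at that p, and 6.02% of those with at least 10 CPM. The log2 fold changes of the 3 (oral over clinical) were -0.45 ± 0.18 (SE) for ENSMMUT00000025039.3, -0.50 ± 0.20 for ENSMMUT00000029729.3 and -0.35 ± 0.09 for ENSMMUT00000068450.1. Their q-values were 0.514, 0.513 and 0.366 after Benjamini-Hochberg adjustment. With the sequencing run as a covariate in the same test, their unadjusted p was 0.0818, 0.162 and 0.00722 in that order.

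**Figure D2:**
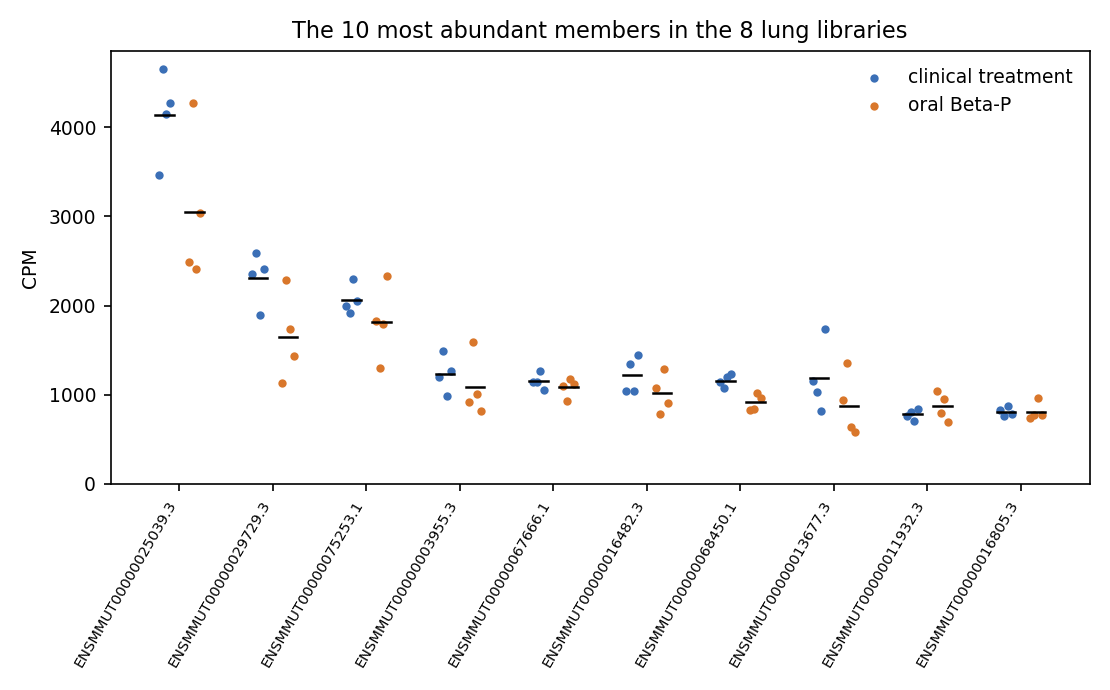
CPM in each of the 8 lung libraries for the 10 members with the highest lung mean, points for single libraries and bars for the mean of each treatment (n = 4). In ENSMMUT00000025039.3 and ENSMMUT00000029729.3 a single oral library, oral 2, sits among the clinical values, at 4266 and 2284 CPM.

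Between libraries of one treatment the members had a larger spread than lung transcripts in general. The spread was measured as the coefficient of variation (CV) of CPM within a treatment, taken as the root mean square of the 2 treatments' values. Its median was 19.6% over the members and 11.6% over lung transcripts with a mean of at least 10 CPM, members included. A CV below 10% was found for 30 members, 15.0%, against 39.5% of the lung transcripts. A CV above 50% was found for 9 members, 4.5%, against 2.02%. The median biological coefficient of variation that edgeR estimated was 0.187 for the members and 0.143 for lung transcripts of at least 10 CPM. The spread was not limited to the members with few counts. The median CV of the 50 with the highest lung means was 15.6%, that of the following groups of 50 was 20.6%, 19.2% and 21%, and 199 members had at least 10 counts in every lung library. The 23 members at least 1000 times above both other tissues had a median CV of 29.9%.

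The 5 members with the largest spread each had their highest value in a different library. ENSMMUT00000024213.3 had a CV of 99.3%, with 167, 20.8, 60.6 and 17.1 CPM in the clinical and 95.5, 29.8, 14.7 and 21.1 CPM in the oral libraries. Clinical 1 and oral 1 were high, and the others were lower in both treatments. ENSMMUT00000077056.1 had a CV of 95.3%, with 56.9, 134, 50.7 and 18.8 CPM against 28.6, 6.88, 0.950 and 7.005 CPM. Its clinical 2 value was the highest and its oral 3 value was almost at 0. ENSMMUT00000039538.2 had a CV of 92.6%, with 0, 10.05, 32.9 and 28.0 CPM against 20.1, 14.4, 66.5 and 7.77 CPM. It was the only member that was not counted in every lung library. ENSMMUT00000044335.2 had a CV of 77.2%, with 69.2, 9.92, 76.9 and 13.5 CPM against 47.8, 19.0, 4.98 and 34.9 CPM. ENSMMUT00000042864.2, which had no count in the liver, had a CV of 65.6%, with 100.1, 137, 107 and 218 CPM against 161, 364, 50.2 and 87.8 CPM. In these last 2 members the high libraries, clinical 1 and 3 and then oral 2, came from different fetuses.

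A few members had little spread within each treatment. ENSMMUT00000031768.3 had the smallest CV, 3.67%, with 328, 329, 313 and 325 CPM in the clinical and 328, 301, 336 and 326 CPM in the oral libraries. It was also one of the 23 members at least 1000 times above both other tissues. ENSMMUT00000017975.3 had a CV of 4.15% and ENSMMUT00000054820.1 one of 5.98%. The latter ranged from 221 to 249 CPM in the clinical and from 237 to 275 CPM in the oral libraries.

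No lung library was at one extreme throughout the list, but some leaned to one side. The median log2 deviation of the members from their mean on the TMM scale was 0.063 in clinical 1 and 0.067 in clinical 2. These are the lung libraries of the other sequencing run. Within the larger run the deviation was 0.014 in clinical 3, 0.033 in clinical 4 and 0.031 in oral 3. It was -0.123 in oral 2 and -0.069 in oral 4, with the other libraries in between. Clinical 3 was the highest of the 8 lung libraries for 41 members and the lowest for 32. Clinical 2 was the highest for 32 and the lowest for 7. Oral 2 was the highest for 25 and the lowest for 45, and oral 4 the highest for 11 and the lowest for 35. Pairs of members were compared by the correlation of their log2 CPM about the treatment means over the 8 libraries, which is a description of libraries that share their animal, run and total. The median correlation over 19900 pairs was 0.013. It was above 0.9 for 94 pairs, 0.472%, against 0.356% of pairs of lung transcripts with at least 10 CPM, and below -0.9 for 0.357% against 0.339%. Among the members with the highest lung means, ENSMMUT00000029729.3 and ENSMMUT00000003955.3 had a correlation of 0.85 (n = 8 libraries). ENSMMUT00000075253.1 and ENSMMUT00000003955.3 had one of -0.92, and ENSMMUT00000067666.1 and ENSMMUT00000013677.3 one of -0.93. These pairs were picked as the strongest correlations among the first 10 members. Others were weak, such as 0.06 for ENSMMUT00000029729.3 and ENSMMUT00000016805.3. Oral 2 was at an extreme of the oral libraries in all 5 members of the picked pairs. How often this holds for other members is not given, so nothing is read from it.

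The comparison of the treatments asked whether the members' lung levels differed between the oral and the clinical group. These groups differ in drug, route, dose, interval and gestational age together. Added together, the members were lower with oral Beta-P. Their summed lung CPM was 44894, 47651, 44276 and 46459 in the clinical libraries and 40929, 42402, 41690 and 40063 in the oral libraries. Every oral library was below every clinical library. The means were 45820 ± 1528 and 41271 ± 1005 CPM (SD, n = 4 each), a difference of -4549 CPM or -9.93%. No test is given for this sum because the members were chosen with results of these data known. Within the 6 libraries of the larger run the difference was -4097 CPM. The pair of fetuses of the same age, 132 days, had 44894 CPM with the clinical treatment and 40929 CPM with oral Beta-P, but these libraries were sequenced in different runs.

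**Figure D3:**
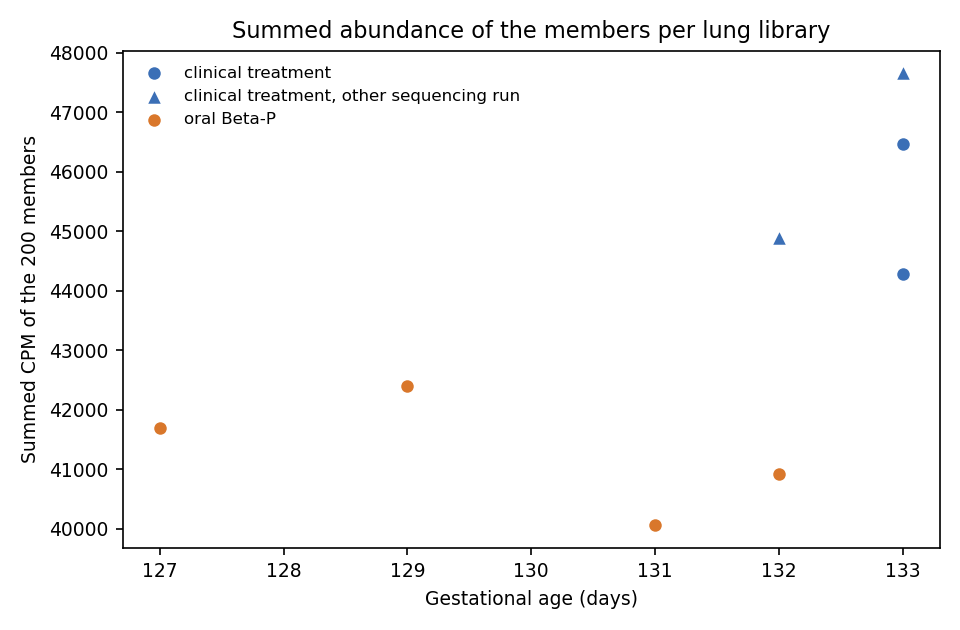
Summed CPM of the 200 members in each lung library against gestational age in days, with a triangle for the 2 clinical libraries of the other sequencing run. The 4 oral libraries lie between 40063 and 42402 CPM and the 4 clinical libraries between 44276 and 47651 CPM, and the vertical axis does not start at 0.

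The summed difference is the net of members that were lower and members that were higher in the oral mean. The lower ones came to -6190 CPM and the higher ones to 1641 CPM. The most negative differences in mean were -1087 CPM for ENSMMUT00000025039.3, -665 CPM for ENSMMUT00000029729.3 and -407 CPM for ENSMMUT00000069783.1. The 10 most negative ones came to -3750 CPM, 60.6% of the lower total. Some members were higher in the oral mean, among them ENSMMUT00000027926.2 by 213 CPM and ENSMMUT00000028698.3 by 131 CPM. In all, 117 members had a lower oral mean and 83 a higher one. Without the 10 members of highest lung mean the sums were 29772 ± 780 and 28117 ± 772 CPM (SD, n = 4 each), a difference of -1656 CPM or -5.56%.

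No single member passed the test in the lung. A member was called where edgeR's quasi-likelihood test gave it a q-value below 0.1 (with p below 0.05) and a fold change of 1.5 or more. All 200 members were tested among 27108 transcripts, 0 were called, and 0.00369% of all transcripts tested were called, which is 1 transcript. The smallest q-value of a member was 0.161. At an unadjusted p below 0.05 there were 39 members, 32 lower and 7 higher with oral Beta-P. The lower members were 16% of the list, against 4.95% of all transcripts tested and 6.02% of those with at least 10 CPM. The higher members were 3.5%, against 4.19% and 5.76%. All oral libraries were below all clinical libraries for 17 members, 8.5%, against 3.12% of all transcripts tested and 3.47% of those with at least 10 CPM. They were above for 4 members, 2%, against 3.08% and 3.83%.

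The sizes were modest. The median log2 fold change of the members was -0.07, against -0.0048 over all transcripts tested, and 118 members (59.0%) were fitted lower against 50.8% of all transcripts tested. The median size of the log2 fold change regardless of sign was 0.18, against 0.11 for lung transcripts of at least 10 CPM. A fitted fold of at least 1.5 was reached by 13 members downward and 3 upward, where 2.04% and 1.09% of lung transcripts of at least 10 CPM reached it. The lower members were spread over the whole range of lung levels, with 8, 7, 8 and 9 at an unadjusted p below 0.05 in successive groups of 50 members. Of the 7 higher members, 5 were in the third of these groups. In the 6 libraries of the larger run 15 members were lower and 6 higher at that p, 7.5% and 3%, against 3.14% and 4.18% of 28651 transcripts, and the median log2 fold change was -0.026. With the run as a covariate 20 members were lower and 6 higher, against 3.33% and 4.15% of transcripts. With gestational age as a covariate 21 were lower and 7 higher, against 2.92% and 2.38%. With clinical 2 left out, the median log2 fold change was -0.033 and 21 members were lower, against 3.43% of transcripts. The 7 higher members became 4 without oral 1 and 4 without oral 3, against 3.42% and 4.16% of transcripts.

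**Figure D4:**
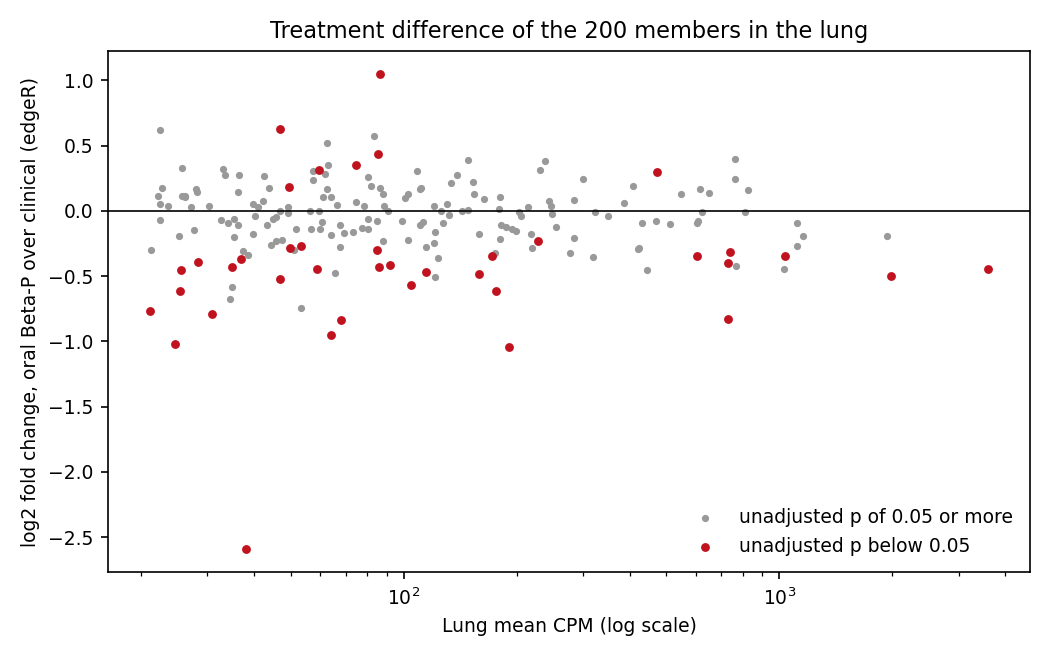
Log2 fold change of each member in the lung, oral Beta-P over clinical, from the edgeR fit, against its lung mean CPM on a log scale. Red points are the 39 members with an unadjusted p below 0.05, of which 32 lie below 0 and 7 above, and no member passed the adjusted threshold.

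The member with the smallest p-value was ENSMMUT00000069783.1. It was measured at 911, 1030, 941 and 851 CPM in the clinical libraries and at 579, 574, 468 and 485 CPM in the oral libraries. The treatments were far apart, with every library of each treatment close to its mean. The log2 fold change was -0.83 ± 0.09 (SE), with an unadjusted p of 1.19e-05 and a q-value of 0.161 in edgeR's quasi-likelihood test. It was at the floor of detection in the liver and the hippocampus. DESeq2, the tool the authors used, gave it a q-value of 7.15e-15.

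Other members were lower in all oral libraries. ENSMMUT00000014774.3 was at 247, 321, 183 and 273 CPM with the clinical treatment and at 97.0, 156, 131 and 115 CPM with oral Beta-P. The lowest clinical value was above the highest oral value, and the log2 fold change was -1.04 ± 0.19 (SE; edgeR q = 0.289). ENSMMUT00000055771.1 was at 22.3, 33.8, 31.9 and 43.6 CPM and at 13.9, 14.8, 18.7 and 17.6 CPM. Its log2 fold change of -1.02 ± 0.20 (SE; edgeR q = 0.298) was close to that of ENSMMUT00000014774.3. ENSMMUT00000060462.1 was at 824, 834, 781 and 842 CPM and at 638, 604, 680 and 723 CPM. Its difference was smaller, -0.31 ± 0.08 (SE; edgeR q = 0.358), and its libraries were among the more even ones. ENSMMUT00000030164.3 was at 32.7, 26.5, 30.6 and 28.2 CPM and at 24.0, 20.5, 22.4 and 19.6 CPM. Its log2 fold change was -0.45 ± 0.10 (SE; edgeR q = 0.358).

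Fewer members were higher with oral Beta-P. ENSMMUT00000014241.3 was at 51.8, 57.7, 71.9 and 44.5 CPM in the clinical libraries and at 96.4, 107, 152 and 112 CPM in the oral libraries. The treatments did not overlap, and the log2 fold change of 1.04 ± 0.18 (SE; edgeR q = 0.282) was the highest of any member. ENSMMUT00000014479.3 was at 64.3, 74.5, 77.5 and 73.8 CPM and at 87.5, 109, 107 and 91.3 CPM, a log2 fold change of 0.44 ± 0.09 (SE; edgeR q = 0.336). ENSMMUT00000003947.3 was at 59.7, 77.7, 56.9 and 67.8 CPM and at 91.6, 87.3, 77.7 and 79.4 CPM, so that the highest clinical and the lowest oral library met, and they were apart only on the TMM scale. Its log2 fold change was 0.35 ± 0.11 (SE; edgeR q = 0.399). ENSMMUT00000017975.3 was at 45.8, 44.7, 47.6 and 46.9 CPM and at 52.2, 53.2, 49.4 and 56.0 CPM. The difference of 0.18 ± 0.06 on the log2 scale (SE; edgeR q = 0.464) was small, and the treatments were separate with little spread within each. ENSMMUT00000006343.3 was at 366, 478, 355 and 488 CPM and at 525, 520, 563 and 474 CPM, with oral 4 below 2 of the clinical libraries (log2 fold change 0.30 ± 0.12, SE; edgeR q = 0.506).

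The largest fitted difference downward was not among those with the smallest p. ENSMMUT00000077056.1, the member with the CV of 95.3% described above, had a log2 fold change of -2.59 ± 0.90 (SE; edgeR q = 0.462). Its oral 1 library was above its clinical 4 library, so the treatments overlapped despite the large fold. ENSMMUT00000033424.3, picked on its fitted fold, was at 82.1, 69.2, 76.1 and 121 CPM in the clinical and 35.9, 61.0, 32.1 and 67.2 CPM in the oral libraries, with oral 4 just below the lowest clinical value. Its log2 fold change was -0.83 ± 0.28 (SE; edgeR q = 0.450), close to that of ENSMMUT00000069783.1 but with a wider error. Upward, ENSMMUT00000047213.2, also picked on its fold, was at 37.9, 48.2, 25.04 and 35.6 CPM and at 57.4, 52.7, 81.9 and 35.7 CPM. Oral 4 stayed among the clinical values, and the log2 fold change was 0.63 ± 0.26 (SE; edgeR q = 0.532).

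The 23 members at least 1000 times above both other tissues had a median lung log2 fold change of -0.14, and of these members 2 were lower at an unadjusted p below 0.05, ENSMMUT00000025039.3 and ENSMMUT00000069783.1, and 1 was higher, ENSMMUT00000047213.2, where 4.95% and 4.19% of all transcripts tested had such a p. They held both the member with the smallest p and the one with the smallest CV. ENSMMUT00000027926.2, the third of the 23 by lung mean, was at 899, 850, 435 and 436 CPM in the clinical and 775, 1115, 1107 and 475 CPM in the oral libraries. Both treatments thus held libraries near the low and the high end, and the log2 fold change was 0.39 ± 0.34 (SE; edgeR q = 0.789), turning to -0.21 with gestational age as a covariate. ENSMMUT00000025929.3, the next below ENSMMUT00000069783.1, ranged from 349 to 569 CPM in the clinical and from 272 to 454 CPM in the oral libraries, with the treatments overlapping.

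**Figure D5:**
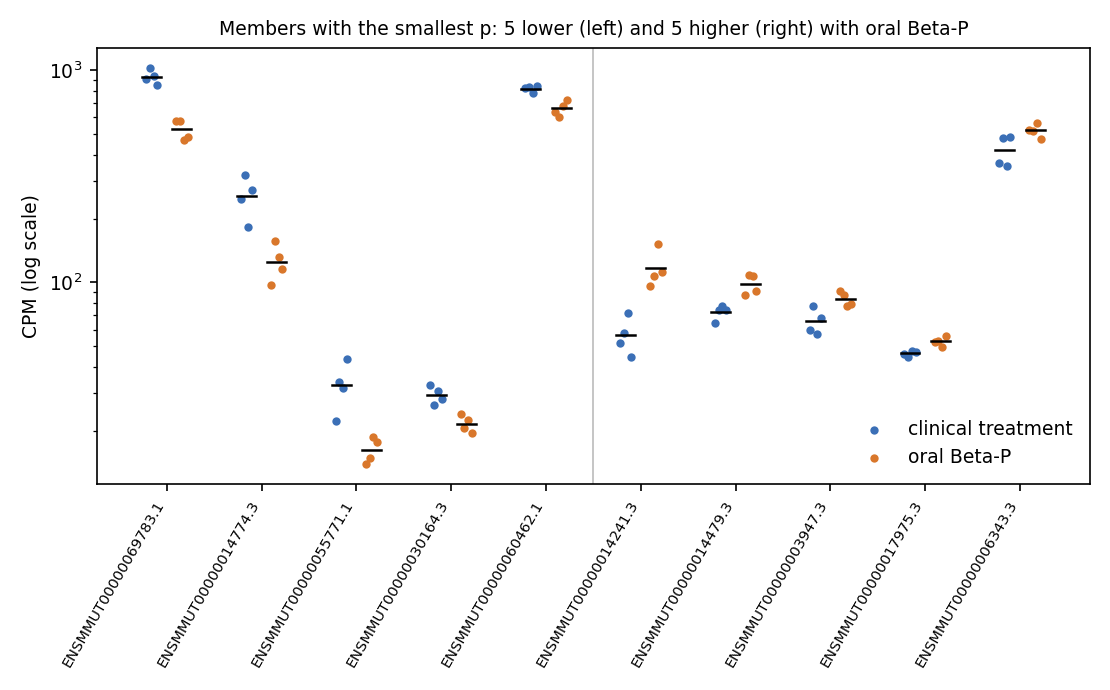
CPM on a log scale in each of the 8 lung libraries for the 5 members with the smallest p in each direction, points for single libraries and bars for the mean of each treatment (n = 4). The treatments are separate in all except ENSMMUT00000006343.3 and ENSMMUT00000003947.3, where they meet, and ENSMMUT00000069783.1, far left, lies between 851 and 1030 CPM with the clinical treatment and between 468 and 579 CPM with oral Beta-P.

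The count of calls depended on the tool. DESeq2 called 6 members in the lung, 5 lower and 1 higher, where it called 0.800% of 28006 transcripts lower and 0.411% higher. They were ENSMMUT00000069783.1, ENSMMUT00000014774.3, ENSMMUT00000055771.1, ENSMMUT00000065804.1 and ENSMMUT00000076830.1, which were lower, and ENSMMUT00000014241.3, which was higher. ENSMMUT00000065804.1 was at 23.4, 34.1, 26.5 and 22.5 CPM and at 18.6, 16.7, 10.2 and 17.0 CPM, with a DESeq2 q of 0.0484. ENSMMUT00000076830.1 was at 237, 223, 209 and 180 CPM and at 160, 93.1, 177 and 127 CPM, with a DESeq2 q of 0.0880. In all 6 the treatments did not overlap, which is not separate support because the calls come from the same libraries.

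In the liver the members were at low counts, and 130 of them passed the filter on low counts. None was called by edgeR, as none of the 25064 transcripts tested was (0%), and the smallest q-value of a member was 0.511. At an unadjusted p below 0.05 there were 12 lower and 2 higher members with oral Beta-P, 9.23% and 1.54% of those tested, against 3.58% and 3.50% of all transcripts tested. The treatments did not overlap for 8 lower and 1 higher members, where 2.38% and 1.97% of transcripts tested had this pattern. The summed liver CPM of the 200 members was 673 ± 92.9 with the clinical treatment and 580 ± 70.3 with oral Beta-P (SD, n = 4 each), and the treatments overlapped. Clinical 1 had the highest sum, 807 CPM, and oral 1 the lowest. Leaving out single libraries gave 8 to 13 lower members and 0 to 4 higher members. Without clinical 4 there were 8 lower and 4 higher members, 5.93% and 2.96%, against 3.08% and 3.43% of all transcripts. Without oral 1 there were 9 lower and 0 higher, against 3.12% and 2.28%, and without clinical 1 there were 10 lower and 0 higher, against 3.18% and 3.22%.

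The member with the smallest liver p was ENSMMUT00000068450.1, at 12.0, 10.4, 9.67 and 10.9 CPM in the clinical libraries and at 7.21, 6.17, 7.22 and 6.55 CPM in the oral libraries. The treatments were separate, as they were for this member in the lung of the same fetuses, with a liver log2 fold change of -0.68 ± 0.13 (SE; edgeR unadjusted p = 0.00062). ENSMMUT00000019822.3 was at 5.48, 3.72, 4.49 and 5.15 CPM and at 1.72, 3.24, 2.07 and 2.40 CPM in the liver, and its lung log2 fold change was -0.08 ± 0.12 (SE), turning to 0.18 with gestational age as a covariate. ENSMMUT00000023623.3 was at 2.49, 3.01, 2.19 and 3.97 CPM and at 0.638, 1.77, 0.863 and 1.09 CPM. DESeq2 called these 3 members lower in the liver, with q-values of 0.00237, 0.0329 and 0.0502, and 0 members higher, where it called 0.569% of 27062 transcripts lower and 0.525% higher. Of the 32 members lower in the lung at an unadjusted p below 0.05, 22 were tested in the liver, and 4 of them were among the 12 lower liver members. Those 4 were ENSMMUT00000068450.1, ENSMMUT00000023623.3, ENSMMUT00000061628.1 and ENSMMUT00000062603.1. Over all 130 members tested in the liver 9.23% were lower at that p. The same overlap over all transcripts is not given, so no shared response of the tissues is read from it. The member with the second highest liver mean, ENSMMUT00000016482.3, went the other way, at 15.0, 25.9, 16.03 and 24.8 CPM with the clinical treatment and 52.6, 26.6, 66.4 and 17.4 CPM with oral Beta-P, a log2 fold change of 0.95 ± 0.40 (SE; edgeR q = 0.685). Oral 1 and oral 3 were high, and oral 2 and oral 4 were among or near the clinical values.

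In the hippocampus 135 members passed the filter and 0 were called, again as 0% of the 29041 transcripts tested. The smallest q-value of a member was 1. At an unadjusted p below 0.05 there were 4 higher members, 2.96%, against 1.69% of all transcripts tested, and 0 lower, against 1.41%. The treatments did not overlap for 3 higher and 1 lower members, where 1.32% and 1.04% of transcripts tested had this pattern. The summed CPM of the members was 590 ± 66.7 with the clinical treatment and 631 ± 36.2 with oral Beta-P (SD, n = 4 each), and the treatments overlapped. The count of higher members moved with single libraries, being 2 (1.47%) without clinical 1, against 2.36% of all transcripts in that fit, and 8 (5.88%) without clinical 3, against 1.99%. Clinical 3 had the highest clinical sum. With the sequencing run as a covariate it was 13, against 4.69% of transcripts (0 lower members, against 2.58%), and clinical 4 is the one library that carries the difference between treatments within a run.

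The member with the smallest hippocampus p was ENSMMUT00000002586.2, at 0.459, 0.540, 2.22 and 0.549 CPM in the clinical and 6.52, 2.44, 4.804 and 2.98 CPM in the oral libraries. Clinical 3 stood close to the lowest oral library and the other 3 clinical libraries were lower. DESeq2 called it higher with a q-value of 0.0939, and no member lower, where it called 0.110% of 34510 transcripts higher and 0.0811% lower. In the lung its log2 fold change was 0.04 ± 0.15 (SE), turning to -0.09 without clinical 3. ENSMMUT00000067666.1 was at 24.4, 26.1, 33.0 and 24.0 CPM in the clinical and 37.6, 29.7, 32.3 and 34.2 CPM in the oral hippocampus, a log2 fold change of 0.32 ± 0.11 (SE; edgeR unadjusted p = 0.0150). In the liver it was lower with oral Beta-P in the fit, at -0.40 ± 0.15 (SE; edgeR unadjusted p = 0.0280), and in the lung it was at -0.09 ± 0.09 (SE). Whether its differences in the 3 tissues are unequal was not tested.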

How the data were processed

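Per the labels RNA was extracted with Trizol, while the paper names RNeasy Universal Mini kits. It was selected for polyA and sequenced as paired-end reads of 75 bp. Per the labels the submitters' processing notes name STAR, featureCounts and DESeq2, and the paper gives the build as MMUL1.0. Other settings, the strand and the treatment of reads shared by near-identical transcripts are not given in the sources used here, so counts of such transcripts are uncertain. The authors deposited 1 table per tissue without normalization, with whole counts in the lung and hippocampus and estimated counts in the liver, where 52.6% of the members' values are not whole. Liver values were rounded to whole numbers for the tests. Column names identified the libraries, and the labels' animal numbers gave the replicates, which are separate fetuses.

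Each tissue was fitted on its own in R 4.3.3 with the quasi-likelihood test of edgeR 4.0.16 (limma 3.58.1) after filterByExpr and TMM normalization, with Benjamini-Hochberg adjustment over all transcripts tested and a call at a fold change of 1.5, p of 0.05 and q of 0.1. Non-overlap of treatments was read from TMM-scaled CPM. DESeq2 1.42.0, other normalization, filters and covariates, leaving out each library, and other member rules were alternatives. The code was tested on simulated data with planted changes larger than most differences of the members. It does not show how often smaller differences would be found. A log2 fold change with SE uses the F statistic.

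The members, lists and rules were chosen with earlier results of these data known. Members are named if they are among the 10 with the highest lung means, the 5 with the smallest lung p in each direction, the 5 with the largest or 3 with the smallest CV, the 3 with the highest liver or hippocampus mean, called in a tissue, or at the edge of a threshold. Others were chosen after their values were seen. Lists of marker genes could not be used because identifiers were not paired with genes, and no sequences were available to print.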

Additional observations from a re-analysis of the deposited data

Results flagged for a closer look

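Dixon's test for 4 libraries was run on 82 groups of named members. It marked 2 of them. In independent groups not picked on their values, chance would mark about 1 in 20, or 4.1 groups. Many of these members were picked on their values and all share the same libraries, so nothing is concluded from this count. ENSMMUT00000016805.3 was at 959 CPM in lung library oral 3 against 735 to 769 CPM in the other 3 oral libraries. ENSMMUT00000024836.3 was at 41.5 CPM in hippocampus library oral 2 against 31.1 to 31.9 CPM in the other 3 oral libraries.

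ENSMMUT00000024128.3 differed between tissues in the direction of its treatment difference. Its oral mean was -0.909 CPM from the clinical mean in the liver, with every oral library below every clinical one, and 0.844 CPM above it in the hippocampus, with every oral library above every clinical one. The difference between the tissues was not tested, and none of these liver and hippocampus values is above 2.01 CPM. In the lung the member was at 17.7 to 39.8 CPM in the clinical and 22.6 to 32.6 CPM in the oral libraries.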

How the results depend on the processing

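In the liver and hippocampus low counts limit the precision, and 70 and 65 members were not tested there. With DESeq2 6 lung, 3 liver and 1 hippocampus members were called where edgeR called 0. With at least 10 counts required in every library, edgeR called 1 lung member (ENSMMUT00000069783.1, q = 0.0868) of 199, among 22876 transcripts tested. How many of all those transcripts were called under that filter is not given. Over all alternatives the q of ENSMMUT00000069783.1 ran from 7.15e-15 to 0.931 and its log2 fold change from -0.875 to -0.721. The 39 lung members at an unadjusted p below 0.05 became 21 in the larger run. Under a ratio of at least 100, with no limit to the 200 members, there were 15 of 78, 2 higher and 13 lower. Under a ratio of at least 10 there were 36 of 200, 12 higher and 24 lower. Of all transcripts tested, 4.19% were higher and 4.95% lower at that p. The median lung log2 fold change under a ratio of at least 10 was -0.035. The median lung log2 fold change of -0.074 became -0.129 with gestational age as a covariate. The 21 non-overlapping members became 33 in the larger run and 23 to 34 with one library left out (34 without clinical 4, 32 without oral 2). Fewer libraries make non-overlap easier, and the share over all transcripts was not computed for these subsets. These counts thus cannot be set against a background. The summed difference became -1656 CPM without the 10 members of highest lung mean. Under joint TMM scaling of the tissues, 130 of 200 members were kept. The 14 liver members at an unadjusted p below 0.05 became 9 with gestational age (1 higher and 8 lower, against 2.22% and 3.07% of all transcripts). The 4 higher hippocampus members became 9 higher and 3 lower with gestational age (12 in all, against 1.93% and 2.13%), 13 higher with run, and 3 higher and 3 lower with at least 10 counts required in every library (against 1.89% and 1.79%). The lung fold changes of 28 members were followed, namely the 20 with the highest means or smallest p and 8 others whose lung fold change or call is given, chosen after seeing the data. Of their 448 values under alternatives, 431 kept direction and side of the threshold, 7 became calls (6 with DESeq2) and 10 reversed. The reversed log2 fold changes were those of ENSMMUT00000016805.3 (-0.010, running from -0.092 to 0.041 with one library left out), ENSMMUT00000019822.3 (0.183 with gestational age, -0.162 to 0.018 with one library left out), ENSMMUT00000002586.2 (-0.067 with gestational age, -0.090 to 0.122 with one library left out) and ENSMMUT00000027926.2 (-0.212 with gestational age). The causes were not tested. No paired analysis was possible because the treatments were given to different animals.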
